A study of Homo sapiens with 2 samples.

Results

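The tumor necrosis factor (TNF) superfamily was described as protein-coding genes of TNF-type ligands and receptors. The cells were MDA-MB-231, a human breast cancer line of the triple-negative type. Members were taken by symbol: every gene beginning with TNFRSF or TNFSF, plus TNF, LTA, LTB, FAS, FASLG, LTBR, CD40, CD40LG, CD27, CD70 and NGFR. TNFRSF11B was left out. This gave 43 genes, 25 receptors and 18 ligands, of the 60774 genes in the table. The rule used symbols and not levels, but it was set with earlier results of these data known.

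RNA-seq was done on 2 libraries. The vector library came from cells with a vector control, and the YWHAB library from cells labelled as over-expressing YWHAB, the gene of the 14-3-3 beta adaptor protein. There was 1 library per group, so no test between conditions was possible and no difference below has a replicate check. The labels do not say whether the cells were a clone or a pool. The protocol text shared by both samples also mentions inducing fat cells with insulin, dexamethasone and isobutylmethylxanthine, and taking retinas, and whether that treatment was given was not settled.

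Library totals worked back from the deposited values were 12375999 fragments (vector) and 13810668 (YWHAB). The listed genes held 99.9% of each, so these are totals over genes and not the number of fragments sequenced. YWHAB itself was at 239 FPKM (fragments scaled to gene length and library total) with the vector and 336 FPKM with YWHAB. Its ratio, YWHAB library over vector library, was 1.41, so the gene named in the label rose by less than 2-fold. Of 8 markers of this mesenchymal-type line, 8 were measured, including VIM, CD44 and AXL. Of 6 luminal and epithelial genes expected to be low in this line 3 were measured: ERBB2 at 32.8 and 49.97 FPKM (vector first, then YWHAB), GATA3 at 3.14 and 3.86 and EPCAM at 1.21 and 1.53. ESR1, PGR and CDH1 had at most 7 fragments in a library. Of 15 leukocyte markers 1 reached a mean of 1 FPKM, their summed level was 6.33 and 4.46 FPKM, and CD3E, CD3G, MS4A1 and TYROBP were at 0 in both. Of 10 retina markers 0 reached that level, whereas 3 of 8 adipocyte markers did, PPARG at 19.8 and 15.5 FPKM, LIPE at 8.45 and 12.5 and LPL at 9.32 and 5.38, with ADIPOQ and LEP at 0 in both. The adipocyte list summed to 38.1 and 33.8 FPKM. Of 10 endothelial and fibroblast markers 5 were measured, led by COL1A1 at 27.3 and 19.8 FPKM and PECAM1 at 15.6 and 15.9, and that list summed to 58.1 and 52.3 FPKM. The part of these marker genes in the results was not tested. In bulk RNA, fewer cells of a type and less RNA per cell cannot be told apart.

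TNF superfamily ligands are mostly membrane proteins that act as trimers, and many can be cut from the cell surface. Their receptors carry cysteine-rich repeats outside the cell. One class has a death domain, which can recruit FADD or TRADD and start caspase-driven death, and another binds TRAF adaptors, which lead to NF-kB and MAP kinase signalling. Decoy receptors bind ligand without passing on a full signal. In breast cancer cells the family is known for TNF-driven inflammatory signalling and for death induced by TRAIL, the product of TNFSF10.

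Of the 4 highest receptors TNFRSF1A, TNFRSF10B and LTBR had close to equal levels in both libraries and TNFRSF12A was lower in the YWHAB library, with a ratio of 0.813. Past the 2-fold rule, 1 receptor and 1 ligand were lower in the YWHAB library and 1 sparsely counted ligand was higher. The lower genes were TNFRSF1B, which encodes TNF receptor 2, and TNFSF15, which encodes the cytokine TL1A. The higher gene was LTB, lymphotoxin beta. A gene was called 2-fold different when log2(FPKM + 1) differed by at least 1, and it was measured when its mean over both libraries was at least 1 FPKM. By this rule 22 of the 43 members were measured, 15 receptors and 7 ligands, and 2 were called lower (9.09%) and 1 higher (4.55%). Among all 11518 measured protein-coding genes 1.45% were called lower and 0.295% higher. Counts of 2 and 1 are too few to set the family apart from that background.

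The median difference of the 22 measured members was -0.05 on the log2(FPKM + 1) scale, against 0.04 for all protein-coding genes measured. A counting interval was computed for each ratio of FPKM, YWHAB library over vector library. It covers counting error only, not variation between cultures. For 2 members (9.09%) it lay above equal levels, and for 8 (36.4%) it lay below, where the shares over protein-coding genes were 30.7% and 23.2%. The difference was smaller than 0.2 in either direction for 10 of the 22, or 45.5%, against 47.0% of protein-coding genes. LTB, TNFRSF19 and TNFSF13B were under 1 FPKM in 1 of the libraries and passed the filter through the other.

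**Figure D1:**
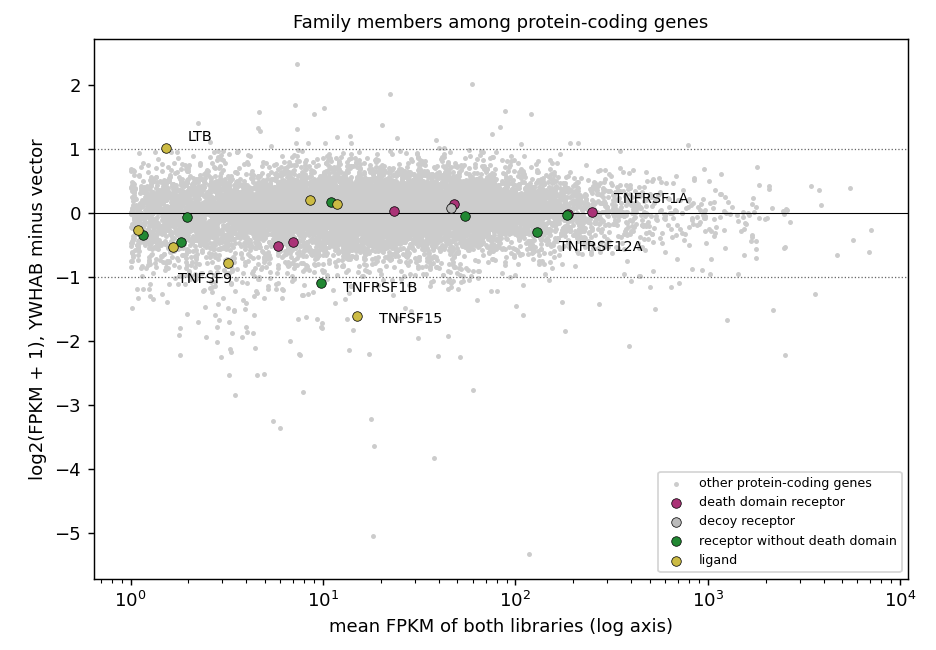
Each point is a protein-coding gene with a mean of at least 1 FPKM. The x axis is its mean FPKM (log axis), the y axis the difference in log2(FPKM + 1), YWHAB minus vector, and dotted lines mark the 2-fold rule. TNFSF15 (-1.61) and TNFRSF1B (-1.08) lie under the lower line, LTB (1.02) lies on the upper one, TNFRSF1A (0.01) lies near 0, and TNFRSF12A (-0.30) lies below it.

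TNFSF15 showed the largest difference of the measured members. The gene (ENSG00000181634) occupies 114784635 to 114806126 of chromosome 9 (GRCh38, minus strand). It was at 23.1 FPKM (vector) and 6.88 FPKM (YWHAB), from 1338 and 445 fragments. The ratio was 0.298, with a 95% counting interval of 0.267 to 0.332, so the whole interval lay under 0.5. TNFSF15 made up 44.7% (vector) and 19.1% (YWHAB) of the summed FPKM of all ligands. The sum over the other ligands was 28.6 and 29.1 FPKM.

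TNFRSF1B was the receptor with the largest difference among those measured. TNF receptor 2 has no death domain, signals through TRAF2 and is activated best by TNF on the cell membrane. The gene (ENSG00000028137) occupies 12167003 to 12209228 of chromosome 1 (plus strand). Its level was 13.6 FPKM (vector) and 5.87 FPKM (YWHAB), from 346 and 167 fragments. The ratio was 0.433, with a counting interval of 0.357 to 0.522 that reached past 0.5. TNFRSF1A, which encodes TNF receptor 1, was thus 18.4 times as high in FPKM as TNFRSF1B with the vector and 43.0 times with YWHAB, a comparison chosen after the values were seen.

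LTB encodes the subunit that anchors lymphotoxin alpha to the membrane, and the complex binds the receptor encoded by LTBR. The gene (ENSG00000227507) occupies 31580525 to 31582522 of chromosome 6 (minus strand). It was counted with 8 fragments (vector) and 32 (YWHAB), or 0.667 and 2.39 FPKM. The ratio was 3.58, and its counting interval ran from 1.62 to 9.003. The difference of 1.02 only just met the rule, and with the median ratio of well-expressed genes set to 1 it was missed, leaving 0 members called higher.

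The sequences upstream of the RefSeq starts of these 3 genes are shown. They are set beside that of TNFRSF1A, the highest receptor, whose level was nearly equal. Each runs 250 bases up to the start given by RefSeq, 5′ to 3′ on the gene's strand (GRCh38.p14), and RefSeq gave a promoter for 28 of the 43 members. They are chr9:114792531-114792780 (minus strand), chr1:12166741-12166990 (plus), chr6:31582426-31582675 (minus) and chr12:6342077-6342326 (minus). Capitals mark matches, on either strand, to the AP-1 element (TGACTCA), the GC box (GGGCGG), the TATA element (TATAAA) or the kappa B consensus. The kappa B consensus was searched as GGGRNNYYCC, where R is A or G, Y is C or T and N is any base.
TNFSF15: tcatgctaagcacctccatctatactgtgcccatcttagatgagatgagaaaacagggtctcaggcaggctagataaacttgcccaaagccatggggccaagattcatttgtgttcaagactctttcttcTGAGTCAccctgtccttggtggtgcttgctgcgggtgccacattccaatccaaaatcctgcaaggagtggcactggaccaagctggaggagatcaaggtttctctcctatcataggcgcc
TNFRSF1B: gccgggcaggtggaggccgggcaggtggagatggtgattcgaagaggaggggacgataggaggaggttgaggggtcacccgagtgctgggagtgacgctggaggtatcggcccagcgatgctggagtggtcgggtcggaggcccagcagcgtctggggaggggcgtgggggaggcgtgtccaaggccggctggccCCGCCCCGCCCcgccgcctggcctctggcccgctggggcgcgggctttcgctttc
LTB: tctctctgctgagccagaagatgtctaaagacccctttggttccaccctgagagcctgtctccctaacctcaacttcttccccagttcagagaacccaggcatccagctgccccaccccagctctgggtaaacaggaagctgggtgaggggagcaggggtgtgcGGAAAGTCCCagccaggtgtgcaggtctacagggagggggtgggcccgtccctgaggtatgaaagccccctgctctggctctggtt
TNFRSF1A: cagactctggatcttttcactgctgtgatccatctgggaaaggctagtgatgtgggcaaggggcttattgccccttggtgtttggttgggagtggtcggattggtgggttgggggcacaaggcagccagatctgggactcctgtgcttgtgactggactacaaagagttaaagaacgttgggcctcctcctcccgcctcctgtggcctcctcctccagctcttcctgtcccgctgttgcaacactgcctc

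The 4 windows differed in base composition and in the letters they hold. The TNFRSF1B window was 72.4% G and C with 22 CpG pairs and held 2 overlapping GC box matches, and 42.3% of 27305 windows of this length held at least 1. The TNFSF15 window had 2 CpG pairs and held 1 AP-1 match starting 120 bases before the start, present in 4.16% of windows. The AP-1 element was first searched as TGANTCA, with any base in the middle, which 6.60% of windows hold, and the stricter form was taken after that match had been seen. The LTB window, also with 2 CpG pairs, held 1 kappa B match starting 86 bases before the start, present in 9.57% of windows. In the TNFRSF1A window, with 4 CpG pairs, 0 of the 4 elements matched, and the TATA element, found in 11.1% of windows, matched in 0 of the 4 genes. These are matches of letters and say nothing of binding. The RefSeq start taken here for TNFSF15 lies 13.6 kb inside the outer start in GENCODE, so its whole window falls within the GENCODE gene. The sequence before that outer start is not shown. The RefSeq start of LTB lies 97 bases inside, so the kappa B match, too, falls within the GENCODE gene. The fragments per gene do not tell which start was used.

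**Figure D2:**
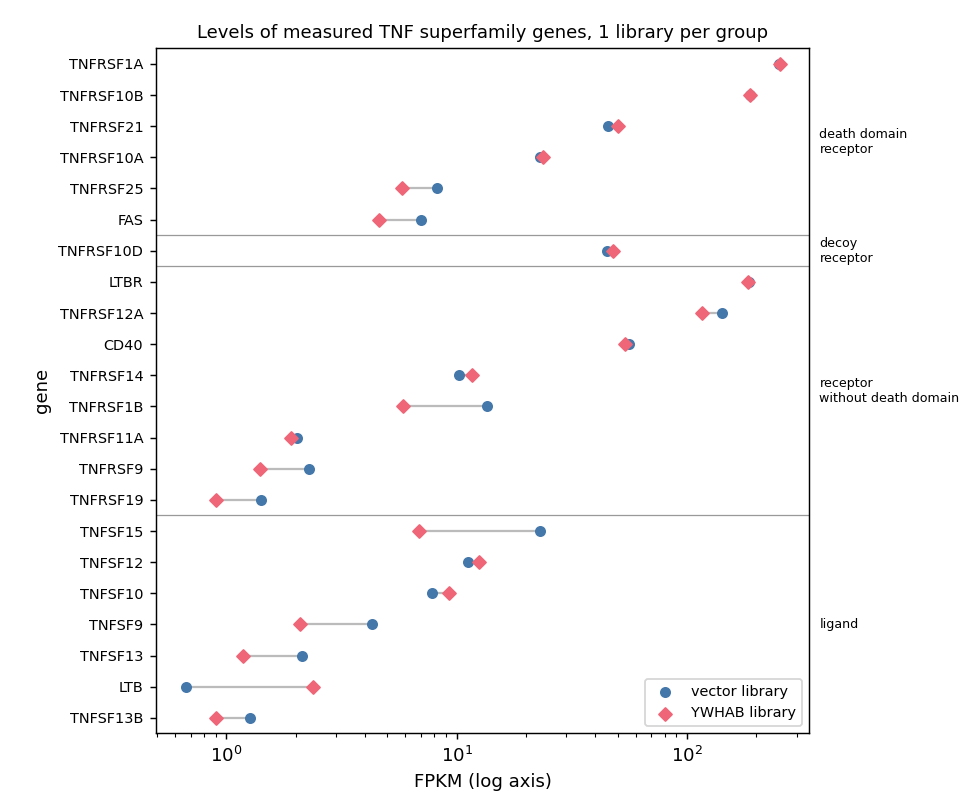
Level of each of the 22 measured members in FPKM (log axis) in the vector library (circles) and the YWHAB library (diamonds), 1 library each, with genes grouped by role. The pairs of TNFRSF1A, TNFRSF10B and LTBR nearly coincide, whereas those of TNFSF15, TNFRSF1B and LTB are far apart.

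Among the death domain receptors the abundant ones were nearly equal and the sparse ones were lower in the YWHAB library. All 7 had fragments and 6 were measured, with a median difference of 0.00406 and 0 past the 2-fold rule. TNFRSF1A was the highest receptor at 250.1 FPKM (vector) and 252 FPKM (YWHAB), above 96.4% of measured protein-coding genes. Its ratio was 1.01, with a counting interval of 0.962 to 1.06, from 3250 and 3659 fragments.

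TNFRSF10B and TNFRSF10A encode the death receptors of TRAIL. TNFRSF10B was at 188 and 187 FPKM (vector first, then YWHAB), with a ratio of 0.997 (0.954 to 1.04). TNFRSF10A was at 23.1 and 23.8 FPKM, with a ratio of 1.03 (0.889 to 1.20). TNFRSF10B was therefore the more abundant of the pair in both libraries.

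TNFRSF21, which encodes death receptor 6, was at 45.6 and 50.3 FPKM. Its ratio of 1.10 (1.04 to 1.17) was the 1 receptor interval above equal levels, and its difference of 0.14 shrank to 0.00622 after correction for gene length and GC content. FAS, the receptor of FAS ligand, was at 7.03 FPKM (vector) and 4.62 (YWHAB), from 116 and 85 fragments. The FAS ratio was 0.657 (0.490 to 0.876), and 8.93% of its exon bases are shared with the oppositely transcribed ACTA2.

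TNFRSF25, death receptor 3, was at 8.21 and 5.77 FPKM, with a ratio of 0.703 (0.534 to 0.923). It is the receptor of the TNFSF15 product, so ligand and receptor were both lower in the YWHAB library. This pair, too, was pointed out after the values were seen. TNFSF15 stood at 2.81 times (vector) and 1.19 times (YWHAB) the FPKM of TNFRSF25, a comparison chosen after the values were seen. Of the exon bases of TNFRSF25, 8.94% are shared with ESPN, transcribed the opposite way, and 2.43% with PLEKHG5 on the same strand. Both were also lower in the YWHAB library, ESPN at 1.13 and 0.633 FPKM and PLEKHG5 at 7.76 and 5.66. Their part in the TNFRSF25 count was not tested. NGFR, the p75 neurotrophin receptor, was not measured by the rule, with 33 fragments (vector) and 10 (YWHAB). Its ratio was 0.272 (0.119 to 0.564).

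The decoys of TRAIL were led by TNFRSF10D, a receptor with a shortened death domain, at 45.1 FPKM (vector) and 47.6 FPKM (YWHAB). Its ratio was 1.06 (0.994 to 1.12). TNFRSF10C, a decoy anchored by a lipid, had 7 and 10 fragments. The summed FPKM of both TRAIL death receptors was 4.63 times (vector) and 4.37 times (YWHAB) that of both decoys, also a comparison chosen after the values were seen. TNFRSF6B, the soluble decoy receptor 3, was listed at 0 in both libraries. All of its exon bases (100%) lie within the readthrough gene RTEL1-TNFRSF6B, which had 45 and 137 fragments, so reads from TNFRSF6B cannot be told apart from those of the longer gene.

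**Figure D3:**
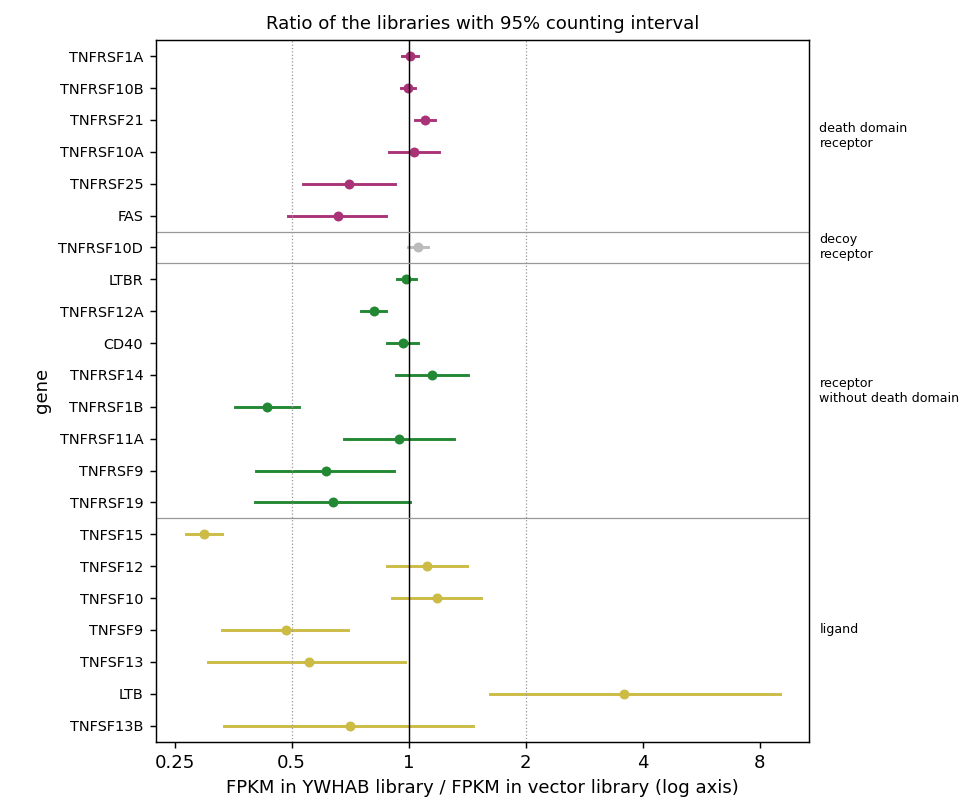
Ratio of FPKM in the YWHAB library to FPKM in the vector library for the 22 measured members (log axis, dotted lines at 0.5 and 2). Points are ratios and bars 95% counting intervals. The interval of TNFSF15 (0.267 to 0.332) lies wholly under 0.5, and that of LTB (1.62 to 9.003) is the widest.

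Of the 15 receptors without a death domain that are not decoys, 8 were measured, and 1 of them had a higher FPKM in the YWHAB library. Their median difference was -0.18. LTBR, the lymphotoxin beta receptor, was at 187 FPKM (vector) and 184 FPKM (YWHAB), with a ratio of 0.986 (0.932 to 1.04). CD40, which drives NF-kB through TRAF adaptors, was at 56.0 and 54.1 FPKM, with a ratio of 0.965 (0.880 to 1.06). For both genes the interval included equal levels.

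TNFRSF12A, which encodes Fn14, the receptor of TWEAK, was at 143 FPKM (vector) and 116 FPKM (YWHAB). Its ratio was 0.813 (0.756 to 0.875) from 1543 and 1400 fragments. The difference of -0.30 was short of the 2-fold rule but outside counting error. TNFRSF1A, TNFRSF10B, LTBR and TNFRSF12A, the 4 highest receptors, held 78.0% (vector) and 77.9% (YWHAB) of the summed receptor FPKM.

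The remaining members of this class were sparse. TNFRSF14, the herpesvirus entry mediator and receptor of LIGHT, was at 10.2 and 11.7 FPKM, with a ratio of 1.15 (0.929 to 1.42). TNFRSF9, a costimulatory receptor of T cells, was at 2.28 and 1.40 FPKM, with a ratio of 0.612 (0.405 to 0.916) from 63 and 43 fragments. TNFRSF11A, which encodes RANK, the receptor that drives osteoclasts, was at 2.02 and 1.91 FPKM, and TNFRSF19 was at 1.42 and 0.906 FPKM. The intervals of the last pair included equal levels.

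Receptors made up most of the transcript level of the family. Receptors held 95.02% (vector) and 96.4% (YWHAB) of the summed FPKM of the family. Of the 18 ligands 7 were measured, with a median difference of -0.26 that ran from -1.61 for TNFSF15 to 1.02 for LTB. That median was 0.14 over the 3 ligands with a mean of at least 5 FPKM, so its sign depended on which ligands were counted.

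TNFSF12, which encodes TWEAK, the ligand of Fn14, was at 11.2 FPKM (vector) and 12.5 FPKM (YWHAB), with a ratio of 1.11 (0.880 to 1.41). TNFSF10, which encodes TRAIL, was at 7.85 and 9.26 FPKM, with a ratio of 1.18 (0.908 to 1.54). Both intervals included equal levels. The TRAIL transcript thus stood at 0.0372 of the summed FPKM of its death receptors with the vector and at 0.0438 with YWHAB. Like the other level ratios, this comparison was chosen after the values were seen.

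TNFSF9, the ligand of the TNFRSF9 product, was at 4.30 FPKM (vector) and 2.08 FPKM (YWHAB), from 87 and 47 fragments. Its ratio of 0.484 (0.332 to 0.698) was under 0.5, but on the log2(FPKM + 1) scale its difference of -0.78 did not meet the rule. With a pseudocount of 0.1 FPKM it was called, which brought the lower members to 3. TNFSF9 and its receptor TNFRSF9 were both lower in the YWHAB library, a pair picked after the values were seen. Other ligands and receptors had unlike ratios: 1.11 for TNFSF12 and 0.813 for TNFRSF12A, and 3.58 for LTB and 0.986 for LTBR. TNFSF10 had a ratio of 1.18 and TNFRSF10B one of 0.997. A link between the levels of ligand and receptor was not tested.

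TNFSF13, which encodes the B cell survival factor APRIL, was at 2.14 and 1.18 FPKM, with a ratio of 0.553 (0.305 to 0.982) from 34 and 21 fragments. It shares 55.5% of its exon bases with the readthrough gene TNFSF12-TNFSF13, which was listed at 0, so its count is uncertain. TNFSF12 shares 29.4% with the same readthrough gene. TNFSF13B, which encodes the related factor BAFF, was at 1.27 and 0.901 FPKM, with an interval that included equal levels.

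The 21 members that were not measured had a highest mean of 0.854 FPKM, that of NGFR. Fragments were seen for 14 of them. TNF, the founding cytokine of the family, had 2 fragments (vector) and 4 (YWHAB), and LTA had 3 and 5. TNFSF14, which encodes LIGHT, had 11 fragments (vector) and 0 (YWHAB). The counting interval of its ratio ran from 0 to 0.357.

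Among the other sparse receptors, CD27 had 1 and 5 fragments, TNFRSF8 had 11 and 16, TNFRSF13C had 3 and 7, TNFRSF18 had 1 and 1, and TNFRSF17 had 1 and 0. Among the other sparse ligands, TNFSF4 had 9 and 7, TNFSF8 had 2 and 1, TNFSF18 had 1 and 1, and FASLG had 1 and 0. All of these intervals included equal levels, so no difference was detectable at this depth. Listed at 0 in both libraries were CD40LG, CD70, TNFRSF4, TNFRSF6B, TNFRSF13B, TNFSF11 and TNFSF12-TNFSF13, 7 genes in all. For the 5 that share at most 50% of their exon bases with another gene on the same strand, a floor of 3 fragments allows up to 0.123 to 0.307 FPKM per library. No such limit holds for TNFRSF6B or for TNFSF12-TNFSF13, which shares 69.5% of its exon bases with TNFSF13.

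Among the measured genes that act with or downstream of the receptors 0 met the 2-fold rule, a rule that 1.45% (lower) and 0.295% (higher) of protein-coding genes met, and nothing is read from that count. Of 16 measured death signalling genes 0 were called in either direction, and their median difference was -0.03. BIRC2, a ubiquitin ligase that protects cells from TNF-induced death, was at 125 and 129 FPKM (vector first, then YWHAB), and CFLAR, the caspase-8 inhibitor, was at 60.1 and 63.1 FPKM. CYLD, a deubiquitinase that limits NF-kB signalling, was at 28.4 and 19.0 FPKM, with a ratio of 0.668 (0.605 to 0.738).

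RIPK1, the kinase at the branch between survival and death, was at 9.37 and 12.5 FPKM, with a ratio of 1.34 (1.17 to 1.53). CASP10, an initiator caspase, was at 2.70 and 1.76 FPKM. DIABLO, which blocks inhibitors of apoptosis, was at 1.55 and 0.861 FPKM, with an interval of 0.291 to 1.04 that included equal levels. This DIABLO entry shares 29.6% of its exon bases on the same strand with another gene entry of that name, so its level is uncertain. RIPK3 and FADD were the death signalling genes that were not measured. RIPK3 had 1 and 2 fragments. FADD, the death domain adaptor, was picked after its values were seen, with 5 and 20 fragments and a ratio of 3.58 (1.31 to 12.2). It shares 54.9% of its exon bases with AP000879.1 on the opposite strand, and how such bases were counted was not stated, so its level is uncertain.

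Of 22 measured TRAF and ubiquitin adaptors 0 were called, the median difference was 0.10, and 10 intervals were above equal levels (45.5%) and 5 below (22.7%), against 30.7% and 23.2% of protein-coding genes. TNIP1, a ubiquitin-binding inhibitor of NF-kB, was at 271 FPKM (vector) and 347 FPKM (YWHAB). MAP4K4, a kinase upstream of JNK, was at 128 and 170 FPKM. TRAF4 was at 90.6 and 68.5 FPKM, with a ratio of 0.756 (0.687 to 0.832), and TANK, a TRAF-binding protein, was at 45.0 and 34.0 FPKM. TRAF2, the adaptor used by both TNF receptors and picked once its values were known, was at 136 and 153 FPKM. TNIP3, a sparse relative of TNIP1 also picked after its values were seen, was not measured, with 18 and 4 fragments and a ratio of 0.199 (0.0490 to 0.605).

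Among 5 measured TNFAIP genes, named for induction by TNF or for likeness to such a gene, 0 were called and the median difference was 0.32. TNFAIP2 was at 43.1 and 58.7 FPKM, TNFAIP1 at 97.6 and 102 FPKM, TNFAIP8 at 4.67 and 6.22 FPKM, and TNFAIP8L1 at 6.47 and 8.31 FPKM. TNFAIP3, which encodes the NF-kB feedback inhibitor A20, was at 38.3 and 36.0 FPKM, with a ratio of 0.938 (0.861 to 1.02). The TNFAIP3 interval included equal levels.

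All 9 genes of ligand shedding and processing were measured and 0 were called. TIMP3, which inhibits the TNF-releasing protease ADAM17, was at 38.5 FPKM (vector) and 65.7 FPKM (YWHAB), with a ratio of 1.71 (1.62 to 1.80). FURIN, which cuts several ligands during secretion, was at 72.0 and 93.9 FPKM, and FRMD8, a partner of the iRhom proteins, at 39.5 and 28.4 FPKM. RHBDF2, an iRhom that carries ADAM17 to the cell surface, was at 65.1 and 73.5 FPKM, and the protease ADAM10 was at 96.4 and 107 FPKM. ADAM17 itself, a gene picked once its values were known, was at 16.1 and 15.6 FPKM, with a ratio of 0.971 (0.865 to 1.09).

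**Figure D4:**
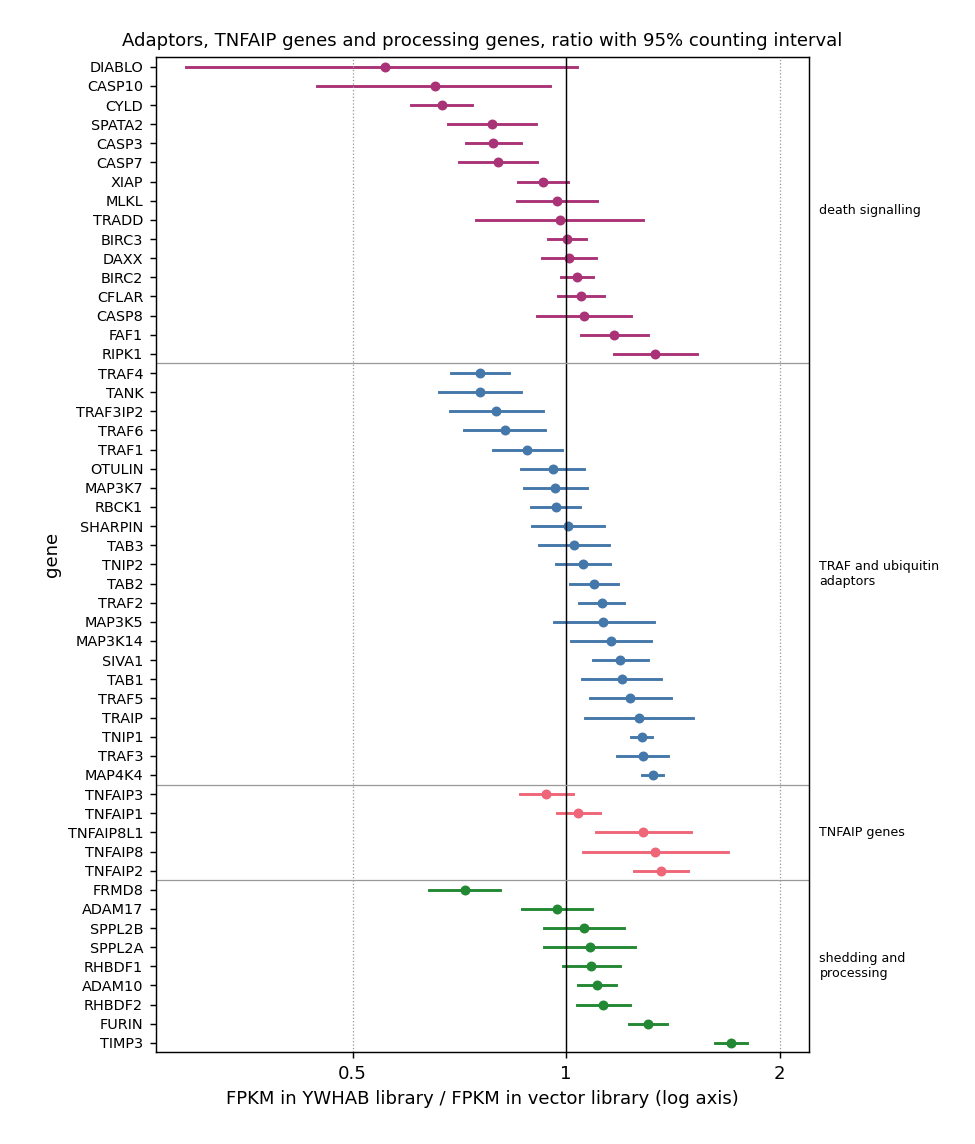
Ratio of FPKM in the YWHAB library to FPKM in the vector library (log axis, dotted lines at 0.5 and 2) for measured genes of 4 lists. Points are ratios and bars 95% counting intervals, with 1 library per group. All points lie between the dotted lines, with TIMP3 (1.71) the highest.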

How the data were processed

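RNA-seq libraries of MDA-MB-231 cells, 1 per group, were compared. The authors deposited FPKM values for 60774 Ensembl genes, per the labels. HISAT2 2.0.5 and hg38 are named in the submitters' processing notes. For the counter, annotation, strand use and filters nothing is given in the sources used.

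Symbols, classes, positions and exon overlaps came from GENCODE 29 (GRCh38), which held 96.3% of the identifiers. Low FPKM values step by 1 fragment per gene length, which gave the library totals, and all 26770 genes above 0 came out as whole fragments (relative tolerance 1e-11). For 14.1% of them, TNF, TNFRSF10B and YWHAB included, the length was a multiple set nearest to the GENCODE mean transcript length. Their interval widths depend on it. FPKM rests on this mean length. Intervals are exact (Clopper-Pearson, 95%, SciPy 1.17.1) on the split of fragments between libraries. PCR copies are not independent molecules, so intervals and the floor of 3 fragments cover counting error only.

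No test was run with 1 library per group, and no p-value is given. Differences are log2(FPKM + 1), which understates the change of low genes. Members averaging at least 1 FPKM were named with values, and the others by fragments. From each list of pathway genes the 4 measured genes with the largest difference and the 2 highest were named. Members and lists were chosen with earlier results of these data known. The 6 alternatives were another pseudocount, no filter, a stricter filter, a pair of scalings, and length and GC correction. The functions were tested on simulated data.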

Additional observations from a re-analysis of the deposited data

How the results depend on the processing

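The lower calls of TNFSF15 and TNFRSF1B held under all 6 alternatives. The number of members called lower was 2, or 3 with a pseudocount of 0.1 FPKM. LTB was the 1 member called higher, and this count was 0 with a mean of at least 5 FPKM, which leaves LTB out, and 0 with median scaling (the median ratio over genes at 10 FPKM or more brought to 1). The median of the ligands moved from -0.26 to -0.46 with the pseudocount of 0.1 FPKM, to -0.0865 with no filter, to -0.15 after length and GC correction and to 0.14 with a mean of at least 5 FPKM, where 3 ligands remain. The median of death signalling genes was -0.03 and turned to 0.00410 with rescaling to equal totals. Medians of the whole family, the receptors and the TRAF and ubiquitin adaptors moved by under 0.1 in every alternative. Members near 0 changed sign with scaling: LTBR and TNFRSF10B with equal totals, TNFRSF1A with median scaling, and LTBR and TNFRSF10D after length and GC correction. Over all genes, 92 were called higher and 265 lower, against 213 and 204 after that correction, but among protein-coding genes the split was 34 and 167 against 34 and 157. No paired analysis was possible because each group has 1 library. Depth limits the sparse members: TNF, LTA and FASLG had at most 5 fragments in a library.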

Other observations

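Several members of the family lie in clusters, in some of which the differences were alike and in others not. The values here were looked up after the family had been described. On chromosome 6, LTA, TNF and LTB lie in a row with gaps of 1.2 and 2.2 kb, and of these only LTB was measured, at 0.667 and 2.39 FPKM (vector first, then YWHAB). On chromosome 12, TNFRSF1A and LTBR lie 32.9 kb apart with differences of 0.01 and -0.02, and CD27, 53.3 kb further on, had 1 and 5 fragments. On chromosome 1, TNFRSF1B (-1.08) lies 22.8 kb from TNFRSF8, which had 11 and 16 fragments. On chromosome 8 the 4 TRAIL receptor genes TNFRSF10B, TNFRSF10C, TNFRSF10D and TNFRSF10A lie in a row with gaps of 33.4, 18.2 and 26.4 kb. The differences of TNFRSF10B, TNFRSF10D and TNFRSF10A were -0.00460, 0.08 and 0.04, and TNFRSF10C, with 7 and 10 fragments, was not measured. A difference under 0.2 was also found for 47.0% of protein-coding genes. On chromosome 17, the neighbours TNFSF12 (0.14) and TNFSF13 (-0.52) differed in sign. On chromosome 19, TNFSF9 (-0.78), CD70 (0 fragments) and TNFSF14 (11 and 0 fragments) lie in a row with gaps of 47.3 and 57.1 kb.

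Of 7 superfamily genes with names outside the rule 3 were measured, and the intervals of all 3 included equal levels. RELT, a TNF receptor relative, was at 18.9 FPKM in both libraries, with a ratio of 1.00 (0.889 to 1.13). Its relatives RELL1 and RELL2 had ratios of 1.04 (0.878 to 1.24) and 0.896 (0.603 to 1.33). The ectodysplasin genes were sparse: EDA had 7 and 11 fragments, EDA2R had 5 and 0, EDAR had 0 and 1, and the adaptor EDARADD had 1 and 1. The interval of EDA2R, 0 to 0.978, lay just below equal levels, and those of EDA, EDAR and EDARADD included them.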
